A study of Mus musculus with 21 samples.

Results

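Peritubular myoid cells (PTM), the contractile cells that wrap the seminiferous tubules of the testis, were set against vascular smooth muscle cells (VSMC), the contractile cells of blood vessel walls, in 3 RNA sequencing libraries of each. Every gene with at least 1 FPKM in at least 3 of these 6 libraries was taken, FPKM being a count of sequenced fragments divided by transcript length and by library size. This gave 11741 genes, of 19285 with FPKM values and 22135 in the table. Of the 11741 genes, 10214 reached 1 FPKM in all 6 libraries, 741 in the 3 PTM libraries alone and 332 in the 3 VSMC libraries alone. Just inside the threshold stood 1098 genes with 1 FPKM in exactly 3 libraries, with a median level of 1.65 FPKM over the 6 libraries, and just outside it 275 genes with 1 FPKM in exactly 2 libraries and a median of 0.79 FPKM.

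Both groups were untreated primary cells of C57BL/6J mice, grown in DMEM/F12 medium with 10% fetal bovine serum at 37 °C and 5% CO2, from which total RNA was taken. The PTM were isolated from testis by published methods, and the VSMC were obtained from a commercial supplier, so that the type of cell and where it came from cannot be told apart. The vessel of origin, the age of the mice and the number of animals were not given, and no label says that the 3 libraries of a group came from separate cultures. The p values below thus rest on the spread among libraries that may be technical repeats. Libraries of Sertoli cells, Leydig cells, germ cells, intestinal smooth muscle cells (ISMC) and tracheal smooth muscle cells (TSMC), 3 of each, handled in the same way with the smooth muscle cells from the supplier, are used below where they are named.

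Smooth muscle contracts when calcium activates myosin light chain kinase, which lets myosin pull on actin filaments that are anchored to the membrane at dense plaques. Vascular smooth muscle cells also lay down the elastic fibres and collagens of the vessel wall, and in culture they can move from a contractile to a matrix-producing state. Peritubular myoid cells use the same contractile proteins to move sperm and fluid along the tubule. Together with Sertoli cells they build the basement membrane of the tubule, and they secrete factors such as GDNF that act on spermatogonial stem cells.

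The depth inferred from the size of a single fragment was 21200000 fragments in each PTM library, against 22200000 to 22400000 in the VSMC libraries. The FPKM of all genes summed to 514313 to 533199 in PTM, against 423593 to 434484 in VSMC, so a given FPKM is a smaller share of the summed level in PTM. The median log2 fold change over all 11741 genes was 0.27. Quantile normalization, scaling to the median log ratio and scaling to an equal sum shifted it by -0.28, -0.23 and -0.26. PTM replicate 2 stood apart, with a correlation across genes of 0.975 and 0.985 with PTM replicates 1 and 3, against 0.997 between those 2 libraries, and genes are not independent replicates. The VSMC libraries correlated at 0.998 with each other.

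Checked against their defining markers, both preparations held contractile genes, and the PTM libraries also held markers of the other somatic cells of the testis. Smooth muscle alpha actin (Acta2) was at 1652, 1474 and 1689.7 FPKM in PTM, against 2464, 2334 and 2299 FPKM in VSMC. The contractile markers did not single out PTM among testicular cells, since every Sertoli library held more Acta2, Myh11 (smooth muscle myosin heavy chain) and Des (desmin) than every PTM library. Acta2, Myh11 and Des averaged 1605, 48.5 and 79.2 FPKM in PTM, against 4332, 221 and 444 FPKM in the Sertoli libraries, a difference that was not tested. Insl3, the peptide hormone of Leydig cells, was at 4368, 2039.9 and 4532 FPKM in PTM, against 1.01, 0.81 and 0.61 FPKM in VSMC, and averaged 3249 ± 3140.0 FPKM in the Leydig libraries (SD, n = 3, as for every mean with ± here). Cldn11, the tight junction protein of Sertoli cells, was at 105, 481 and 180.0 FPKM in PTM, against 0, 0.08 and 0.05 FPKM in VSMC, and averaged 158 ± 66.2 FPKM in the Sertoli libraries. The PTM libraries thus held these Leydig and Sertoli genes at about the level of the libraries that carry those names, and the VSMC libraries did not.

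Over the whole lists, 21 of 23 Sertoli markers that met the FPKM rule were called higher in PTM and none lower. The listed Sertoli markers summed to 2066, 4389 and 2527 FPKM in PTM replicates 1, 2 and 3, against 314 to 336 FPKM in VSMC. Of 16 Leydig markers, 13 were called higher and none lower, and the list summed to 5558, 2981 and 5657 FPKM in PTM, against 74.6 to 85.5 FPKM in VSMC. Insl3 alone made up 78.6%, 68.4% and 80.1% of the Leydig sum in PTM replicates 1, 2 and 3, and the list without it summed to 1190, 941 and 1125 FPKM in PTM, against 73.6 to 84.9 FPKM in VSMC. PTM replicate 2 had the highest Sertoli sum and the lowest Leydig sum of the 3, the second resting mostly on Insl3. Cyp17a1 and Lhcgr, a steroid enzyme and the luteinizing hormone receptor of Leydig cells, averaged 0.02 and 0.26 FPKM in PTM, and were listed at 0 in every VSMC library. Among the listed genes, 6 Sertoli and 7 Leydig markers were listed at 0 in all VSMC libraries, and none in all PTM libraries. The part these cells have in the differences below was not tested. In cell preparations such as these, fewer cells of a type and less RNA per cell cannot be told apart.

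The VSMC libraries held markers of other cell types in turn. Of 17 endothelial markers, 10 were called lower in PTM and 2 higher, of which Robo4 was called under none of the 3 other scalings and Sox18 not after quantile normalization. The endothelial list summed to 134 to 188 FPKM in PTM, against 362 to 378 FPKM in VSMC. Emcn, a sialomucin of endothelium, was at 20.2, 16.2 and 19.1 FPKM in PTM, against 124, 119 and 135 FPKM in VSMC, and the adhesion molecule Pecam1 was at 5.89, 3.32 and 4.75 FPKM in PTM, against 29, 28.8 and 29.7 FPKM in VSMC. Neither gene's groups overlapped. The fibroblast list summed to 1190 to 1300 FPKM in PTM, against 4540 to 4950 FPKM in VSMC, with 8 of 16 members lower and 6 higher. Col1a1 and Col1a2, whose values are given below, made up most of the VSMC sum, and vascular smooth muscle cells also lay down collagens. Pericyte markers summed to 111 to 121 FPKM in PTM, against 329 to 344 FPKM in VSMC, and 3 of 7 were lower and 1 higher. Macrophage markers summed to 144 to 261 FPKM in PTM, against 260 to 289 FPKM in VSMC, with 3 of 14 higher and 2 lower, and 5 higher without PTM replicate 1 or with smaller pseudocounts (0.1 and 0.01 FPKM). Germ cell markers were low in both, at 118 to 151 FPKM in PTM and 71.5 to 77.3 FPKM in VSMC, with 3 of 7 higher and none lower. Of 15 vascular smooth muscle markers, 4 were higher in PTM and 3 lower. The epithelial, adipocyte, glial, skeletal and cardiac muscle, and chondrocyte and osteoblast lists had 3 to 6 members each, of which 2 or 3 were higher and 0 to 2 lower. No lymphocyte or erythrocyte marker met the FPKM rule.

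Between PTM and VSMC, 2699 of 11741 genes (23.0%) were called, by limma on log2(FPKM + 1) at a Benjamini-Hochberg adjusted p under 0.05 and a log2 fold change of 1 or more, or -1 or less. Of these, 1783 (15.2% of all genes) were higher in PTM and 916 (7.8%) were lower. Under the 3 other scalings the calls split more evenly, with 1140 higher (9.71%) and 1407 lower (12%) after quantile normalization. Scaling to the median log ratio gave 1271 higher and 1264 lower (10.8% each), and an equal sum of FPKM gave 1245 higher (10.6%) and 1311 lower (11.2%). Counts of list members, above and below, are to be read against these shares of all genes, each under its own scaling. The 741 genes that reached 1 FPKM in the PTM libraries alone could be called only as higher in PTM. The 332 that did so in the VSMC libraries alone could be called only as lower. All of the 916 lower genes and 1134 of the 1783 higher genes were called in the same direction under every scaling. Without PTM replicate 2, 1810 genes were higher and 895 lower. The libraries of the 2 groups did not overlap for 81.6% of all genes. Fold changes here are on the log2(FPKM + 1) scale, PTM minus VSMC, which understates the change of genes with low FPKM.

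**Figure D1:**
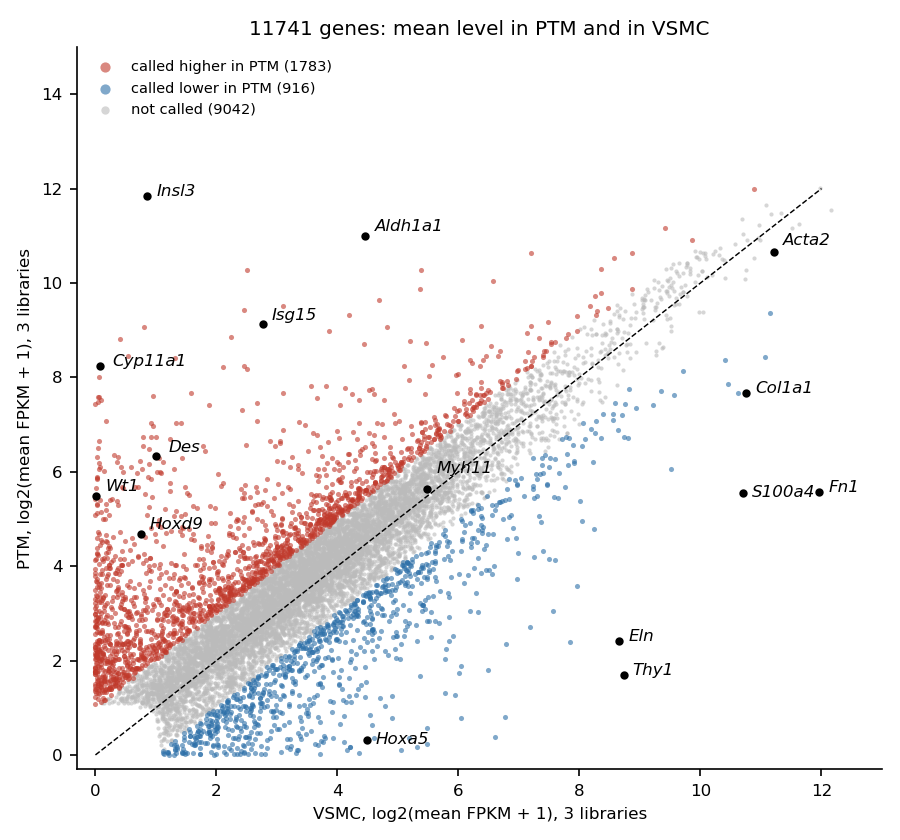
Mean level of each of 11741 genes in PTM (vertical axis) and in VSMC (horizontal axis), as log2(mean FPKM + 1) over 3 libraries a group, with the dashed line at equal levels. Red points are the 1783 genes called higher in PTM, blue points the 916 called lower, and grey points were not called; black points are named examples. Acta2 and Myh11 lie near the dashed line, while Insl3 and Cyp11a1 lie far above it and Fn1 and Thy1 far below it.

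The largest positive fold change was that of Insl3, at 10.89 (SE 0.30) on the log2 scale. Prss35 came next, a protein of the serine protease family, and was at 390.3, 542 and 423 FPKM in PTM, against 0.3, 0.4 and 0.26 FPKM in VSMC. Cxcl14, a chemokine, was at 607, 414 and 590.4 FPKM in PTM, against 0.55, 0.88 and 0.8 FPKM in VSMC. Every PTM library stood above every VSMC library for these genes. Lcn2, an iron-siderophore binding lipocalin, was at 432, 206 and 414 FPKM in PTM, against 0.49, 0.3 and 0.55 FPKM in VSMC. Clu, the secreted chaperone clusterin, was at 839.7, 1879 and 1014 FPKM in PTM, against 4.67, 4.57 and 4.78 FPKM in VSMC, and it was highest in PTM replicate 2. Mgarp, a mitochondrial protein of steroid-making cells, was at 185, 199 and 196 FPKM in PTM, against 0.9, 0.95 and 0.95 FPKM in VSMC, with the smallest standard error of the 15 (log2 fold change 6.65, SE 0.053, adjusted p = 1.65e-08). Chchd10, another mitochondrial protein, was at 649, 719 and 683 FPKM in PTM, against 5.55, 5.24 and 2.68 FPKM in VSMC.

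Of the other genes at this extreme, Mrap, an accessory protein of melanocortin receptors, averaged 178 ± 56.9 FPKM in PTM and 0.0333 ± 0.0289 FPKM in VSMC. Defb19, a beta-defensin, averaged 189.6 ± 75.6 FPKM in PTM and 0.0433 ± 0.0751 FPKM in VSMC. Cst12, a cystatin, averaged 171 ± 111 FPKM in PTM and was listed at 0 in every VSMC library. Ptgds, prostaglandin D synthase, averaged 133 ± 56.9 FPKM in PTM and 0.127 ± 0.115 FPKM in VSMC. Clu, Cldn11, Cst12 and Ptgds are on the Sertoli list, and Insl3, Cyp11a1 and Akr1cl on the Leydig list. Ptgds, however, averaged 18.35 ± 19.3 FPKM in the Sertoli libraries and 99.33 ± 79.6 FPKM in the Leydig libraries. The genes at this extreme that are on neither list were high in those libraries too. Prss35, Cxcl14, Lcn2, Mgarp and Mrap averaged 413.5, 561.8, 999, 306.4 and 182.6 FPKM in the Leydig libraries. Chchd10, Defb19 and Irf7 averaged 906.8, 228.5 and 437.2 FPKM in the Sertoli libraries. Insl3 (chr8:71689252-71690577, mm10) lies within the interval of Jak3 on the same strand, so fragments of the 2 genes may be shared, and Jak3 itself was at 7.8, 4.83 and 6.32 FPKM in PTM, against 1.02, 1.43 and 0.93 FPKM in VSMC.

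The largest negative fold change was that of Thy1. Thy1, a surface glycoprotein of fibroblasts and stromal cells (chr9:44043384-44048579, mm10), was at 2.02, 2.34 and 2.4 FPKM in PTM, against 435, 418 and 418 FPKM in VSMC (log2 fold change -7.03, SE 0.06, adjusted p = 1.65e-08). Grem1, a secreted antagonist of bone morphogenetic proteins, was at 0.29, 0.23 and 0.36 FPKM in PTM, against 95.3, 92.1 and 101 FPKM in VSMC. Aqp1, a water channel, was at 0.69, 0.68 and 0.89 FPKM in PTM, against 106, 106 and 112 FPKM in VSMC. Each of the 3 was at or below a few FPKM in every PTM library and far higher in every VSMC library. Acta1, skeletal muscle alpha actin, was at 0.78, 0.51 and 0.85 FPKM in PTM, against 67.4, 64 and 63.1 FPKM in VSMC. S100a4, a calcium-binding protein of motile mesenchymal cells, was at 55.9, 32.6 and 50.05 FPKM in PTM, against 1708, 1579 and 1714 FPKM in VSMC. Mrc2, an endocytic collagen receptor, averaged 2.5 ± 0.31 FPKM in PTM and 89.1 ± 4.17 FPKM in VSMC, and Tll1, a tolloid-like metalloprotease, 0.49 ± 0.0656 FPKM in PTM and 43.5 ± 1.34 FPKM in VSMC. H60a, a ligand of the NKG2D receptor, averaged 0.287 ± 0.197 FPKM in PTM and 35.2 ± 1.77 FPKM in VSMC, and its interval overlaps those of Raet1a and Raet1c, so its reads are uncertain. Fam150a, a ligand of ALK receptors, and Itgbl1, an integrin beta-like protein, averaged 0.127 and 1.4 FPKM in PTM, against 38.6 and 60.6 FPKM in VSMC.

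**Figure D2:**
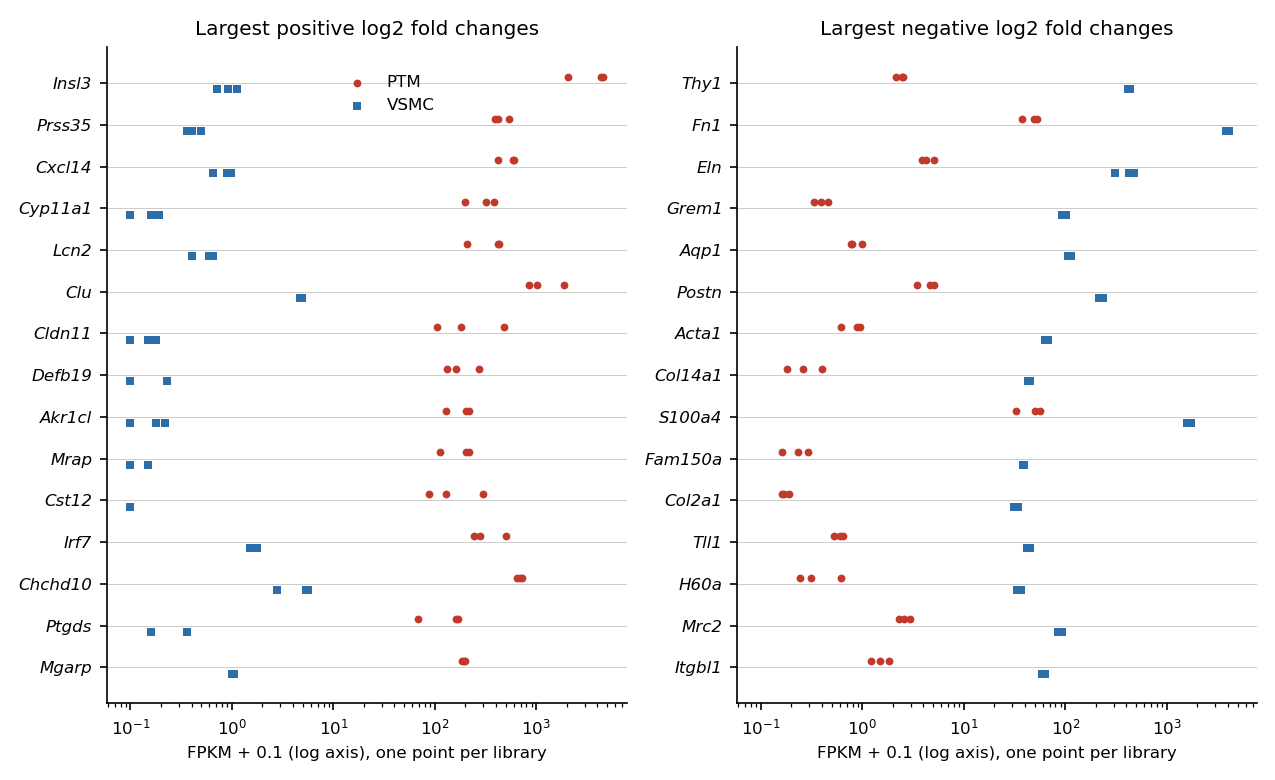
FPKM plus 0.1 on a log axis of the 15 genes at each extreme of the log2 fold change, with a point for each of 3 PTM (red circles) and 3 VSMC (blue squares) libraries. The PTM and VSMC points of no gene overlap; those of Cldn11 and Cst12 are spread widest among the PTM libraries, with replicate 2 highest.

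The contractile apparatus held calls in both directions and was lower on balance. Of 29 members, 5 were called higher in PTM and 5 lower (17.2% each, against 15.2% and 7.8% of all genes), and 4 were higher and 10 or 11 lower under the other scalings. The list's median log2 fold change was -0.30, against 0.27 over all genes. Acta2, Myh11 and Tagln did not reach the fold threshold. Acta2 had a log2 fold change of -0.56 with a 95% interval of -0.73 to -0.40. Myh11, smooth muscle myosin heavy chain, was at 51.1, 43.3 and 51.1 FPKM in PTM, against 41.4, 46.6 and 43.1 FPKM in VSMC, a log2 fold change of 0.14 with an interval of -0.05 to 0.34. Tagln, an actin-binding protein, was at 1581, 1343 and 1504 FPKM in PTM, against 1944, 1902 and 1816 FPKM in VSMC (-0.36, interval -0.53 to -0.18). The range of Myh11 over the PTM libraries overlapped that of the VSMC libraries, and its log2 fold change was -0.12 after median log-ratio scaling.

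The members that rose in PTM were Des, Pdlim3, Mylk, Casq2 and Ppp1r14a, of which Ppp1r14a, an inhibitor of myosin phosphatase, was called under no other scaling. Des encodes desmin, the muscle intermediate filament protein (chr1:75360292-75368579, mm10). It was at 91.7, 64.5 and 81.3 FPKM in PTM, against 1.1, 1.07 and 0.86 FPKM in VSMC (log2 fold change 5.31, SE 0.13, adjusted p = 4.14e-07). Mylk, myosin light chain kinase, was at 57.4, 63.9 and 64.1 FPKM in PTM, against 9.57, 9.79 and 9.77 FPKM in VSMC. Pdlim3, an actinin-associated LIM protein, was at 11.8, 14.6 and 13.1 FPKM in PTM, against 0.26, 0.16 and 0.06 FPKM in VSMC. In each of these the lowest PTM library was well above the highest VSMC library. Casq2, a calcium-binding protein of the sarcoplasmic reticulum, averaged 7.66 ± 0.715 FPKM in PTM and 1.94 ± 0.15 FPKM in VSMC.

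The members that fell were Myh10, Flna, Vcl, Actg2 and the integrin chain Itga8. Myh10, non-muscle myosin IIB, was at 2.89, 3.27 and 3.1 FPKM in PTM, against 51.9, 56.3 and 53.9 FPKM in VSMC (log2 fold change -3.75, SE 0.062). Flna, the actin crosslinker filamin A, was at 180.0, 139.6 and 166 FPKM in PTM, against 458, 490.4 and 511 FPKM in VSMC, and Vcl, the plaque protein vinculin, at 74.3, 117 and 86.1 FPKM in PTM, against 256, 255 and 278 FPKM in VSMC. Actg2, enteric smooth muscle gamma actin, was at 115, 102 and 117 FPKM in PTM, against 320.3, 295 and 296 FPKM in VSMC. All PTM libraries stood below all VSMC libraries for these 4 genes. The ISMC and TSMC libraries held 4.83 and 5.25 FPKM of Des.

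Among transcription factors known for smooth muscle, 3 of 21 were called higher in PTM and 8 lower, with 1 or 2 higher and 8 or 9 lower under the other scalings. Gata4 alone was higher under every scaling. Srf, serum response factor, was at 38.6, 32.5 and 37.9 FPKM in PTM, against 28, 29.1 and 27.7 FPKM in VSMC, and did not reach the fold threshold (log2 fold change 0.35, interval 0.17 to 0.52). Its coactivator Myocd was below 1 FPKM on average in both groups, at 0.38 FPKM in PTM and 0.503 FPKM in VSMC, and did not meet the FPKM rule. Foxc2, a forkhead factor of vessel and mesoderm development, was at 3.69, 2.26 and 3.56 FPKM in PTM, against 30.2, 31.8 and 28.6 FPKM in VSMC. Klf4, which in vascular smooth muscle represses contractile genes, averaged 21.9 ± 2.37 FPKM in PTM and 49.9 ± 0.897 FPKM in VSMC, and Mef2a 12 ± 2.07 FPKM in PTM and 32.5 ± 2.23 FPKM in VSMC. Foxc2, Klf4 and Mef2a were called lower under every scaling.

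Receptors and channels that set smooth muscle tone differed member by member. Of 19 contractile agonist receptors, 5 were higher in PTM and 4 lower (26.3% and 21.1%, against 15.2% and 7.8% of all genes). The endothelin receptor Ednra averaged 3.96 ± 0.965 FPKM in PTM and 0.857 ± 0.155 FPKM in VSMC, and the angiotensin receptor Agtr1a 3.78 ± 1.08 FPKM in PTM and 0.653 ± 0.143 FPKM in VSMC. The vasopressin receptor Avpr1a was at 17.8, 11.3 and 16.6 FPKM in PTM, against 3.3, 3.55 and 3.07 FPKM in VSMC, and the purinergic receptor P2ry2 at 30.3, 31.6 and 31.5 FPKM in PTM, against 8.29, 9.43 and 8.77 FPKM in VSMC. These 4 were higher in PTM under every scaling. The serotonin receptor Htr1b was at 1.31, 0.42 and 1.41 FPKM in PTM, against 25.5, 26.9 and 27.4 FPKM in VSMC, and the thromboxane receptor Tbxa2r at 0.68, 0.74 and 0.83 FPKM in PTM, against 9.82, 9.66 and 8.89 FPKM in VSMC. Both were lower in every PTM library than in any VSMC library.

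Of 20 channel and calcium store genes, 3 were higher and 6 lower. Piezo1, a stretch-activated cation channel, was at 15.5, 10.5 and 13.9 FPKM in PTM, against 89.4, 94 and 95 FPKM in VSMC. Ano1, a calcium-activated chloride channel, averaged 0.76 ± 0.201 FPKM in PTM and 10.4 ± 0.229 FPKM in VSMC, and Itpr3, an IP3 receptor of the calcium store, 4.23 ± 0.503 FPKM in PTM and 21.5 ± 1.67 FPKM in VSMC. Cacnb2, a calcium channel beta subunit, went the other way, at 2.48 ± 0.756 FPKM in PTM and 0.15 ± 0.02 FPKM in VSMC. Cyclic GMP signalling, which relaxes smooth muscle, had 2 of 13 genes higher and 5 lower, with 4 higher under smaller pseudocounts. The natriuretic peptide receptors moved in opposite directions: Npr1 was at 25.5, 29.2 and 26.6 FPKM in PTM, against 0.97, 0.98 and 0.74 FPKM in VSMC, and Npr2 at 4.65, 3.26 and 4.47 FPKM in PTM, against 32.8, 31.6 and 32.5 FPKM in VSMC. Among soluble guanylate cyclase subunits, Gucy1a3 averaged 8.07 ± 0.915 FPKM in PTM and 1.11 ± 0.08 FPKM in VSMC, while Gucy1a2 averaged 0.623 ± 0.0945 FPKM in PTM and 3.45 ± 0.478 FPKM in VSMC. Npr1 and Gucy1a3 were called higher and Npr2 and Gucy1a2 lower under every scaling.

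Several transcription factors of the somatic gonad were present in PTM and near 0 in VSMC. Of 18 members, 8 were called higher in PTM and 2 lower (44.4% and 11.1%), with 1 lower without PTM replicate 2, and the 8 stayed higher under each of the 3 other scalings. Gata4, which acts in gonad and heart mesoderm, was at 56.5, 58.6 and 57.2 FPKM in PTM, against 0.03, 0.01 and 0 FPKM in VSMC. Nr5a1, the nuclear receptor that drives steroid-making genes, was at 54.5, 58.3 and 56 FPKM in PTM, against 0, 0.03 and 0.02 FPKM in VSMC. Wt1, needed for the gonadal ridge and for Sertoli cells, was at 22.2, 75.2 and 34.7 FPKM in PTM, against 0, 0.02 and 0 FPKM in VSMC. All PTM libraries held these 3 factors, and the VSMC libraries held at most traces. Tcf21 averaged 41.5 ± 6.4 FPKM in PTM and 0.0533 ± 0.0231 FPKM in VSMC. Sox9 and Dmrt1, both on the Sertoli list, averaged 36.6 ± 21.4 and 16.6 ± 9.68 FPKM in PTM. In VSMC, Sox9 averaged 2.19 ± 0.0551 FPKM and Dmrt1 was listed at 0 in every library. Zfpm2, a cofactor of GATA4, was lower, at 1.08 ± 0.43 FPKM in PTM and 5.03 ± 0.1 FPKM in VSMC. Wt1 and Gata4 averaged 30.5 and 76.7 FPKM in the Sertoli libraries and 30.8 and 62.7 FPKM in the Leydig libraries, so they did not set PTM apart from those cells.

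Hox genes, which record position along the body axis, separated the groups by cluster. Of 28 that met the FPKM rule, 21 were called lower in PTM and 6 higher, the same counts under all 3 other scalings. Without PTM replicate 2 there were 20 lower and 6 higher, Hoxc4 falling short of the threshold. All 9 tested genes of the Hoxa cluster and all 8 of the Hoxb cluster were lower. Hoxa5 was at 0.29, 0.23 and 0.23 FPKM in PTM, against 22.2, 21.2 and 20.8 FPKM in VSMC. Hoxb8 was at 0.16, 0.16 and 0.06 FPKM in PTM, against 17.2, 17.8 and 17.2 FPKM in VSMC, and Hoxb9 at 1.8, 1.05 and 1.27 FPKM in PTM, against 27.8, 28.6 and 29.8 FPKM in VSMC. The PTM values were near 0 for most of these genes. Genes such as Hoxa5 and Hoxb8 met the FPKM rule through the VSMC libraries alone, so they could be called only as lower in PTM. A further 11 listed Hox genes did not meet the rule and were not tested.

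The Hoxd cluster went the other way, with all 5 of its tested genes higher in PTM. Hoxd8 was at 29.9, 20.4 and 30.1 FPKM in PTM, against 1.75, 1.3 and 2.1 FPKM in VSMC. Hoxd9 was at 30.3, 16.2 and 27.6 FPKM in PTM, against 0.79, 0.72 and 0.53 FPKM in VSMC, and Hoxd10 at 21.3, 10.9 and 21.2 FPKM in PTM, against 0, 0.03 and 0.06 FPKM in VSMC. Hoxd8, Hoxd9 and Hoxd10 were lowest in PTM replicate 2. Hoxd9 and Hoxd10 met the FPKM rule through the PTM libraries alone, so they could be called only as higher in PTM. In the Hoxc cluster, Hoxc4, Hoxc5, Hoxc6 and Hoxc8 were lower, Hoxc10 was higher at 2.96 ± 1.11 FPKM in PTM and 0.0533 ± 0.0252 FPKM in VSMC, and Hoxc9 did not reach the fold threshold (-0.14, interval -0.57 to 0.30).

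Hoxa5 averaged 0.0767 and 0.293 FPKM in the Sertoli and Leydig libraries and 18.1 and 18.5 FPKM in the ISMC and TSMC libraries. Hoxd9 averaged 26.1 and 79.2 FPKM in the Sertoli and Leydig libraries and 0.573 and 0.0567 FPKM in the ISMC and TSMC libraries. For both genes the other testicular cells stood with PTM, and the other smooth muscle cells with VSMC.

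**Figure D3:**
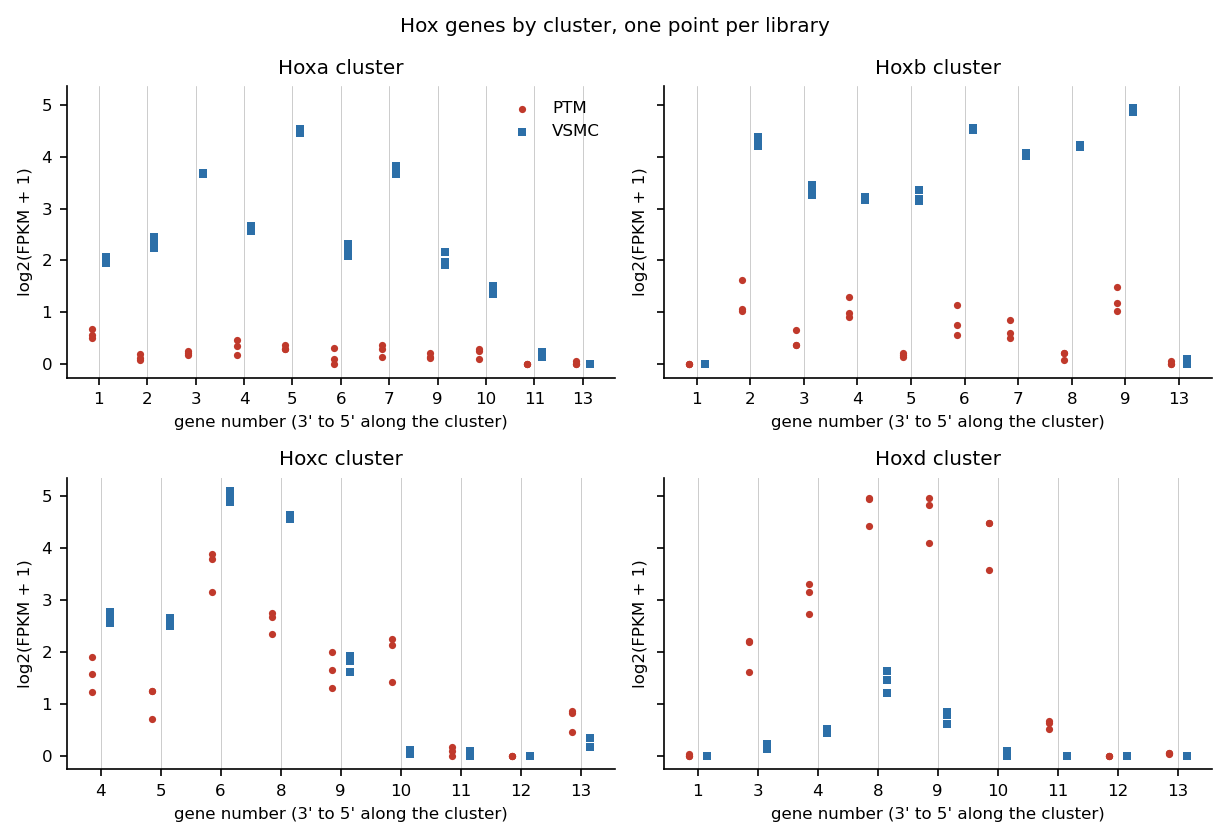
log2(FPKM + 1) of the Hox genes of each cluster in 3 PTM (red circles) and 3 VSMC (blue squares) libraries, ordered by gene number along the cluster. The VSMC points are above the PTM points for the Hoxa and Hoxb genes that met the FPKM rule, and the PTM points are above the VSMC points in the Hoxd cluster from Hoxd3 to Hoxd10.

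Other transcription factors that mark where a mesenchyme lies were mostly lower. Of 21 that were tested, 14 were lower in PTM (66.7%, against 7.8% of all genes) and 3 higher (14.3%, against 15.2%). Tbx15, a T-box factor of trunk mesenchyme, averaged 0.0967 ± 0.0306 FPKM in PTM and 8.33 ± 0.297 FPKM in VSMC, and Foxd1 0.02 ± 0.02 FPKM in PTM and 4.73 ± 0.263 FPKM in VSMC. Twist2, a factor of dermal mesenchyme, averaged 1.94 ± 0.431 FPKM in PTM and 21.1 ± 0.914 FPKM in VSMC. The 3 higher genes were Tcf21, Tbx2 and Tbx3, of which Tbx3 averaged 7.13 ± 2.21 FPKM in PTM and 0.8 ± 0.0954 FPKM in VSMC. All of these calls held under every scaling.

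Genes of steroid hormone synthesis were higher in PTM. Of 17 members, 9 were called higher and none lower (52.9%), and under the other scalings 9 were higher and 1, Hsd17b7, lower. Star, which carries cholesterol into mitochondria, was at 77.7, 79.7 and 62 FPKM in PTM, against 0.34, 0.31 and 0.2 FPKM in VSMC. Cyp11a1, which cuts the cholesterol side chain in the first step, was at 384, 197 and 318 FPKM in PTM, against 0.06, 0.09 and 0 FPKM in VSMC (log2 fold change 8.11, SE 0.23, adjusted p = 6.57e-07). Hsd3b1, which makes progesterone from pregnenolone, was at 58.2, 17.8 and 48 FPKM in PTM, against 0.18, 0.13 and 0.23 FPKM in VSMC, and it has close relatives with which reads may be shared. These 3 genes are also on the Leydig list. The electron carriers of the mitochondrial enzymes rose with them: Fdx1 averaged 226 ± 52.6 FPKM in PTM and 10.8 ± 0.481 FPKM in VSMC, and Fdxr 60.7 ± 12.5 FPKM in PTM and 3.06 ± 0.15 FPKM in VSMC. Cyp17a1, Hsd17b3 and Cyp19a1, enzymes of later androgen and estrogen steps, did not meet the FPKM rule. They averaged 0.02, 0.0267 and 0.04 FPKM in PTM and were at 0 in all VSMC libraries. Hsd17b7, Srd5a1 and Srd5a3, enzymes that also act in later steps, met the rule and were not called on the deposited scale. Of 24 steroid and nuclear receptors, 3 were higher and 3 lower, with 2 higher and 6 lower after quantile normalization and 5 lower with smaller pseudocounts. The estrogen receptor Esr1 averaged 3.08 ± 0.886 FPKM in PTM and 0.07 ± 0.01 FPKM in VSMC. Esr1 was called higher under every scaling. Synthesis and uptake of cholesterol itself was split, with 3 of 28 genes higher and 5 lower, and 5 higher and 4 lower without PTM replicate 2. The exporter Abca1 averaged 18.7 ± 5.48 FPKM in PTM and 3.97 ± 0.453 FPKM in VSMC.

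Retinoid genes were also higher in PTM, with 11 of 16 called higher and none lower (68.8%). Under quantile normalization, 11 were higher and 1, Cyp26b1, lower. Aldh1a1, which makes retinoic acid from retinal, was at 1964, 2159 and 2021 FPKM in PTM, against 20.8, 20.2 and 22.2 FPKM in VSMC. Aldh1a2, a second enzyme of that step, was at 109, 60.2 and 109.7 FPKM in PTM, against 2.58, 2.46 and 2.26 FPKM in VSMC. Adh1, an alcohol dehydrogenase that acts on retinol, was at 69.9, 211 and 107 FPKM in PTM, against 0.98, 0.95 and 0.72 FPKM in VSMC. Stra6, the cell surface receptor for retinol binding protein, averaged 3.88 ± 1.36 FPKM in PTM and was listed at 0 in every VSMC library. Cyp26b1, which breaks retinoic acid down, was not called on the deposited scale, at 1.91 ± 0.38 FPKM in PTM and 3.83 ± 0.0513 FPKM in VSMC. Aldh1a1 averaged 531 and 1184 FPKM in the Sertoli and Leydig libraries and 32.4 and 16 FPKM in the ISMC and TSMC libraries.

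Interferon-stimulated genes were higher in PTM almost throughout. Interferons signal through a complex that holds STAT2 and IRF9 to an element in the promoters of antiviral genes. Of 41 members, 39 (95.1%) were called higher in PTM and none lower, against 15.2% and 7.8% of all genes, and 38 were higher under each other scaling, when Ifi27 was not called. The list's median log2 fold change was 3.66. Irf7, the factor that amplifies interferon production, was at 241, 501 and 278 FPKM in PTM, against 1.4, 1.66 and 1.41 FPKM in VSMC. Isg15, a ubiquitin-like modifier, was at 348, 875 and 448 FPKM in PTM, against 5.17, 6.37 and 5.87 FPKM in VSMC (log2 fold change 6.25, SE 0.32, adjusted p = 6.65e-06). Oas1a, a 2'-5' oligoadenylate synthetase that senses double-stranded RNA, was at 40.5, 107 and 55.4 FPKM in PTM, against 0.46, 0.46 and 0.57 FPKM in VSMC. Every PTM library was far above every VSMC library for all 3 genes, with PTM replicate 2 the highest for each, and the list counted 39 higher without that library too.

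The signalling factor Irf9 rose as well and averaged 38.6 ± 2.93 FPKM in PTM and 8.14 ± 0.645 FPKM in VSMC. Bst2, which tethers virus particles to the cell, averaged 938 ± 248 FPKM in PTM and 40.00 ± 3.66 FPKM in VSMC, and Ifitm3, which blocks virus entry, 1579 ± 130.0 FPKM in PTM and 146 ± 5.73 FPKM in VSMC. The 2 members that were not called were Ifitm2, at 279 ± 54.4 FPKM in PTM and 214 ± 6.77 FPKM in VSMC, and Ifit2, at 5.71, 14.7 and 8.0 FPKM in PTM, against 8.29, 7.93 and 8.55 FPKM in VSMC (log2 fold change 0.09, interval -0.60 to 0.77). Ifit3 and Ifit3b are near-identical copies between which reads may be split. Isg15 averaged 753 and 485 FPKM in the Sertoli and Leydig libraries and 9.13 and 6.12 FPKM in the ISMC and TSMC libraries, so high levels were found in all 3 somatic testicular preparations and low ones in all 3 from the supplier.

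The promoters of 4 of these genes are shown because they differ in whether they hold the interferon-stimulated response element, spelled as GAAA, any 2 bases and GAAA, and searched on both strands, overlapping matches included. Each is the 250 bases before the gene's start in RefSeq on GRCm38.p6, 5′ to 3′ on the gene's strand, with matches in capitals. They are Isg15 (chr4:156200819-156201068, minus strand) and Oas1a (chr5:120907526-120907775, minus strand), which hold matches, Irf7 (chr7:141266425-141266674, minus strand), which had the largest fold change of the 41 and holds none, and Ifit2 (chr19:34550444-34550693, plus strand), which was not called and was chosen after its values were seen.
Isg15: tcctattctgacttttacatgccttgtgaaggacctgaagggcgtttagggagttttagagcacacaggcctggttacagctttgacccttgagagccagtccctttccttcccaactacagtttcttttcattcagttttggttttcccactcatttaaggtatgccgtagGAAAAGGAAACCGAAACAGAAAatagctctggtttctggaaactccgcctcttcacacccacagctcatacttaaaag
Oas1a: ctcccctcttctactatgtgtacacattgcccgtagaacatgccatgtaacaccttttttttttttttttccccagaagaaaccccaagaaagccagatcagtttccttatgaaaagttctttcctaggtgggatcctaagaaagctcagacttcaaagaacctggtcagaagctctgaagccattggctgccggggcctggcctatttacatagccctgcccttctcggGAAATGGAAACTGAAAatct
Irf7: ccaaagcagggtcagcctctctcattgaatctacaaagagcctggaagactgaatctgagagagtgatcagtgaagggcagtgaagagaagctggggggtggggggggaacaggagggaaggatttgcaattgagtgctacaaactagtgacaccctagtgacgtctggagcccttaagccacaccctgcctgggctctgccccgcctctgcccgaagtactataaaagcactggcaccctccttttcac
Ifit2: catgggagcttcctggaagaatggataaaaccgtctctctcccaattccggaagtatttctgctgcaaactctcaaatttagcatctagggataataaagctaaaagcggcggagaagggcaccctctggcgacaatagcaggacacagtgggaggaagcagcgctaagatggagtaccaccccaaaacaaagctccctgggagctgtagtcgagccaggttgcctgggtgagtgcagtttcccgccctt
The Isg15 promoter holds 3 overlapping matches, the farthest beginning 78 bases before the start, and the Oas1a promoter holds 2, beginning 20 and 14 bases before it. The 4 promoters shown do not stand for the list. Oasl2, called higher at a log2 fold change of 5.87 and not shown, holds no match. Ifitm2, the other member that was not called, holds 1. RefSeq promoters were matched for 31 of the 41 members, and 16 of these (51.6%) held at least 1 match, against 238 of 9375 promoters (2.54%) over all genes tested. A match is a description of the letters, and the absence of this spelling from Irf7 and Ifit2 says only that it is not in these windows. The half-site AAGGTCA of NR5A1 was in none of 13 steroid synthesis promoters, against 2.54% of all, and the CArG box that serum response factor binds was in 2 of 25 contractile promoters (8.0%), those of Vcl and Myl9, against 1.22% of all.

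Antigen presentation genes rose with them. Of 20 members, 18 (90.0%) were higher in PTM and none lower, and 15 or 16 were higher under the other scalings. H2-K1 and H2-D1, the classical class I heavy chains, were at 389.9, 676 and 441 FPKM and 803, 1818 and 1076 FPKM in PTM, against 13.5, 13.4 and 13.9 FPKM and 41.4, 40.4 and 40.03 FPKM in VSMC. Psmb8, a subunit of the immunoproteasome, was at 84.7, 136 and 94 FPKM in PTM, against 1.09, 1.09 and 0.84 FPKM in VSMC. The peptide transporter Tap1 averaged 36.9 ± 18.8 FPKM in PTM and 2.93 ± 0.403 FPKM in VSMC, and B2m, the class I light chain, 1595 ± 534 FPKM in PTM and 467 ± 21 FPKM in VSMC. The groups did not overlap for any of these. Class I heavy chain genes are close relatives, so the split of reads among them is uncertain. Class II genes were low, with 2.79 FPKM of H2-Aa in PTM and 0.0633 FPKM in VSMC.

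Secreted proteins of innate defence followed the same direction. Of 27 complement and acute phase genes, 16 were higher (59.3%) and 2 lower, with 15 or 16 higher and 2 lower under the other scalings. The complement protease C1s1 was at 80.2, 142 and 92.8 FPKM in PTM, against 1.02, 0.68 and 0.99 FPKM in VSMC, and complement component C3 at 80.2, 37.3 and 70.1 FPKM in PTM, against 1.01, 0.91 and 1.13 FPKM in VSMC. The C1 inhibitor Serping1 rose as well, with 99.1 ± 21.3 FPKM in PTM and 6.35 ± 0.911 FPKM in VSMC. Saa3, serum amyloid A3, averaged 289 ± 43.9 FPKM in PTM and 4.7 ± 0.347 FPKM in VSMC. The lower genes included Masp1, a protease of the lectin pathway, at 0.357 ± 0.0611 FPKM in PTM and 10.2 ± 0.16 FPKM in VSMC.

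Of 32 chemokine and cytokine genes, 14 were higher and 4 lower, and 11 or 12 and 5 under the other scalings. Ccl5 and Cxcl10, which draw lymphocytes, averaged 49.8 ± 26.3 and 12.8 ± 8.7 FPKM in PTM, against 0.58 ± 0.052 and 0.137 ± 0.0808 FPKM in VSMC. Cxcl12 was lower, at 75, 52.4 and 75.3 FPKM in PTM, against 182, 188 and 168 FPKM in VSMC, and so was Il6, at 5.07 ± 0.612 FPKM in PTM and 14.8 ± 1.41 FPKM in VSMC. Among 24 innate sensors, 6 were higher and 2 lower, with 4 higher and 2 lower under the other scalings. The double-stranded RNA sensor Tlr3 averaged 6.48 ± 2.8 FPKM in PTM and 1.53 ± 0.0346 FPKM in VSMC, and the lipopolysaccharide sensor Tlr4 1.82 ± 0.104 FPKM in PTM and 6.03 ± 0.452 FPKM in VSMC. Tlr3 was called higher and Tlr4 lower under every scaling.

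Fibre-forming matrix was lower in PTM. Of 17 collagen genes other than those of basement membrane, 13 (76.5%) were lower and 1 higher, and the higher gene, Col3a1, was called neither under another scaling nor without PTM replicate 1, PTM replicate 3 or VSMC replicate 3. The alpha chains of collagen I, the main fibre of the vessel wall's outer coat, were at 210.4, 185 and 216 FPKM (Col1a1) and 196, 207 and 207 FPKM (Col1a2) in PTM, against 1712, 1855 and 1609 FPKM and 1592, 1638 and 1509.6 FPKM in VSMC. Col3a1 was at 211, 91.3 and 189.6 FPKM in PTM, against 80.4, 79.7 and 66.2 FPKM in VSMC, a log2 fold change of 1.03 that was 0.76 after median log-ratio scaling. Col8a1, a short-chain collagen of vessels, was at 5.62, 10.1 and 5.97 FPKM in PTM, against 188, 189 and 186 FPKM in VSMC. Col14a1 and Col2a1, at the extreme of the comparison, averaged 0.18 and 0.0733 FPKM in PTM, against 43.9 and 32 FPKM in VSMC.

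Of 42 elastic fibre and matrix glycoprotein genes, 20 were lower (47.6%) and 6 higher, and 25 or 26 lower and 6 higher under the other scalings. Fn1, fibronectin (chr1:71585473-71653234, mm10), was at 52.6, 37.1 and 49.5 FPKM in PTM, against 3827, 4063 and 4082 FPKM in VSMC (log2 fold change -6.41, SE 0.13, adjusted p = 1.79e-07). Eln, the elastin of the vessel's elastic sheets, was at 3.75, 5.02 and 4.18 FPKM in PTM, against 421, 474 and 312 FPKM in VSMC. Its partners moved with it: Fbn1, the fibrillin of microfibrils, averaged 17.3 ± 1.96 FPKM in PTM and 150.5 ± 10.2 FPKM in VSMC, and Fbln5, which tethers elastin to cells, 5.51 ± 1.99 FPKM in PTM and 144 ± 8.92 FPKM in VSMC. The crosslinking enzyme Lox averaged 197 ± 10.7 FPKM in PTM and 755 ± 17.5 FPKM in VSMC. Postn, periostin, was at 4.51, 3.33 and 4.97 FPKM in PTM, against 236, 235 and 217 FPKM in VSMC. The 6 that rose included the collagen-binding proteoglycan Dcn, at 37.6, 69.3 and 46.8 FPKM in PTM, against 3.75, 2.88 and 2.99 FPKM in VSMC, and Spp1, osteopontin, at 1581, 713 and 1494 FPKM in PTM, against 326, 322 and 326 FPKM in VSMC.

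Basement membrane, which PTM share with Sertoli cells in the tubule wall, was divided by chain. Of 25 genes, 9 were higher and 4 lower (36.0% and 16.0%), and 8 and 6 under the other scalings. The main collagen IV chain Col4a1 did not reach the fold threshold, at 379.8, 264 and 342 FPKM in PTM, against 306, 320.3 and 318 FPKM in VSMC (0.05, interval -0.26 to 0.35). The minor chains Col4a4 and Col4a6 were higher, at 2.52 ± 0.606 and 5.7 ± 1.37 FPKM in PTM and 0.24 ± 0.0529 and 0.587 ± 0.085 FPKM in VSMC. Among laminin alpha chains, Lama1 and Lama4 averaged 4.33 ± 0.67 and 22.4 ± 7.49 FPKM in PTM, against 0.0667 ± 0.00577 and 2.1 ± 0.14 FPKM in VSMC, while Lama5 averaged 5.23 ± 1.78 FPKM in PTM and 33.9 ± 2.7 FPKM in VSMC. Tinagl1, a matricellular protein of basement membranes, was at 413, 770.0 and 453 FPKM in PTM, against 146, 147 and 146 FPKM in VSMC. Nid1 and Hspg2, the linkers nidogen and perlecan, averaged 50.1 ± 1.74 and 44.1 ± 13.4 FPKM in PTM, against 215 ± 13.1 and 156 ± 14.5 FPKM in VSMC. Lama1, Lama4, Col4a4, Col4a6 and Tinagl1 were higher, and Lama5, Nid1 and Hspg2 lower, under every scaling.

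Receptors for matrix were more often lower than higher, with 11 of 23 integrin and related genes lower (47.8%) and 3 higher. Itgb1, the shared beta 1 chain, was at 295, 258 and 289 FPKM in PTM, against 837, 831 and 843 FPKM in VSMC, and Itgav, which pairs in receptors for fibronectin and vitronectin, at 19.7, 21.4 and 21 FPKM in PTM, against 83.3, 84.7 and 93.5 FPKM in VSMC. Itga11, a collagen-binding chain, averaged 0.727 ± 0.215 FPKM in PTM and 28.8 ± 2.77 FPKM in VSMC. The heparan sulfate proteoglycan Sdc4 went against the list, at 435, 685 and 496 FPKM in PTM, against 26.5, 27.6 and 27.8 FPKM in VSMC. Enzymes that remodel matrix, with their inhibitors, were called more often than all genes in both directions. Of 32, 8 were higher (25.0%) and 10 lower (31.2%), against 15.2% and 7.8% of all genes. Timp1, an inhibitor of metalloproteinases, was at 2589, 1696 and 2589.9 FPKM in PTM, against 699.6, 676 and 677 FPKM in VSMC, and Timp2 at 221, 203 and 204 FPKM in PTM, against 654, 647 and 657 FPKM in VSMC. These 2 inhibitors were thus called in opposite directions, and both calls held under every scaling.

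Growth factors that act on germ cells or their niche were called in both directions, 8 of 25 higher and 8 lower (32.0% each). Under the other scalings 6 were higher and 9 lower. Gdnf, which maintains spermatogonial stem cells, was at 7.68, 28.5 and 12.5 FPKM in PTM, against 0.44, 0.54 and 0.6 FPKM in VSMC. Kitl, the ligand of KIT on spermatogonia and Leydig cells, was at 41.8, 61.4 and 46.2 FPKM in PTM, against 1.59, 1.71 and 2.11 FPKM in VSMC. Gas6, a ligand of TAM receptors, was at 442, 209 and 389 FPKM in PTM, against 53, 53.4 and 52.4 FPKM in VSMC. Adm, the vasodilator peptide adrenomedullin, was at 327, 241 and 330.1 FPKM in PTM, against 32.7, 31.5 and 35.5 FPKM in VSMC. All 4 were higher in every PTM library than in any VSMC library. Mesenchymal fibroblast growth factors were lower: Fgf10 averaged 0.28 ± 0.113 FPKM in PTM and 14.2 ± 0.659 FPKM in VSMC, and Fgf7 3.06 ± 1.31 FPKM in PTM and 31.7 ± 2.39 FPKM in VSMC. Csf1, which supports macrophages, was at 413, 400.0 and 433 FPKM in PTM, against 443, 441 and 476 FPKM in VSMC, and was not called. Gdnf and Kitl averaged 14.3 and 15.7 FPKM in the Sertoli libraries and 0.277 and 50.3 FPKM in the Leydig libraries.

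In the Wnt pathway, 10 of 22 genes were higher (45.5%) and 5 lower. The ligands Wnt4 and Wnt6 averaged 11.1 ± 0.271 and 17.1 ± 4.18 FPKM in PTM, against 0.137 ± 0.0379 and 0.107 ± 0.0603 FPKM in VSMC. Axin2, a target and inhibitor of the pathway, was at 11.1, 10.1 and 10.8 FPKM in PTM, against 0.06, 0.08 and 0.06 FPKM in VSMC. The secreted enhancer Rspo2 was lower, at 0.0267 ± 0.0306 FPKM in PTM and 8.92 ± 0.125 FPKM in VSMC, and so was the antagonist Dkk3, at 0.847 ± 0.222 FPKM in PTM and 10.4 ± 1.02 FPKM in VSMC. TGF-beta and BMP genes were divided, with 8 of 40 called in each direction (20.0%, against 15.2% higher and 7.8% lower of all genes). Under the other scalings 7 were higher and 11 or 12 lower. The targets of BMP signalling Id1 and Id2 averaged 122 ± 32.3 and 71 ± 7.23 FPKM in PTM, against 45.5 ± 4.33 and 15.2 ± 1.37 FPKM in VSMC, and the ligand Bmp4 13.6 ± 0.626 FPKM in PTM and 40.4 ± 0.839 FPKM in VSMC. Id1 and Id2 were called higher and Bmp4 lower under every scaling.

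Insulin-like growth factor genes were called 7 higher and 6 lower of 19 (36.8% and 31.6%). Igfbp4 and Igfbp3, which bind the factors, averaged 46.4 ± 18.9 and 82.1 ± 15.8 FPKM in PTM, against 5.36 ± 0.525 and 17 ± 1.11 FPKM in VSMC, and Igfbp2 329.5 ± 15.7 FPKM in PTM and 1350.0 ± 86.7 FPKM in VSMC. Of 26 Notch, Hedgehog and PDGF genes, 2 were higher and 5 lower, with 10 lower after quantile normalization and 7 under the other scalings, and 4 or 5 higher and 8 lower with smaller pseudocounts. The receptors for PDGF, which recruits mural cells to vessels, went opposite ways. Pdgfra was at 18.6, 10.4 and 17.5 FPKM in PTM, against 0.99, 1.18 and 1.11 FPKM in VSMC, and Pdgfrb at 25.5, 19.3 and 23.9 FPKM in PTM, against 112, 115 and 106 FPKM in VSMC. All PTM libraries were above all VSMC libraries for Pdgfra and below them for Pdgfrb.

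The list of the prostaglandin and angiotensin systems also held genes of adrenomedullin, endothelin and natriuretic peptides. Of its 27 tested genes, 13 were higher and 2 lower (48.1% and 7.41%), and 10 and 5 under the other scalings. The 13 included Adm, Ramp1 and Ramp2. They also included Edn1 and Nppb, which were called under none of the 3 other scalings. Edn1 was at 45.7, 101.6 and 54.3 FPKM in the PTM libraries and Nppb at 2.89, 9.08 and 3.76 FPKM, both highest in PTM replicate 2. The 2 lower genes of the list were Calcrl and Ptgs1. Without PTM replicate 1 there were 4 lower, and without PTM replicate 2 or VSMC replicate 3 there was 1. Agt, the precursor of angiotensin, was at 82.8, 35.5 and 85.7 FPKM in PTM, against 0.03, 0.05 and 0.08 FPKM in VSMC, and averaged 87.5 FPKM in the Leydig libraries. Hpgd, which inactivates prostaglandins, was at 97.6, 74.5 and 98.8 FPKM in PTM, against 0.03, 0.03 and 0.03 FPKM in VSMC. Ptgs1, cyclooxygenase 1, was at 4.97, 4.36 and 4.96 FPKM in PTM, against 30.5, 28.2 and 31.8 FPKM in VSMC. Agt and Hpgd were nearly absent from VSMC, and Ptgs1 was lower in every PTM library than in any VSMC library. Junction genes were more often lower, with 11 of 30 lower (36.7%, against 7.8% of all genes) and 6 higher (20.0%, against 15.2%). Cdh11, a cadherin of mesenchyme, averaged 7.14 ± 0.688 FPKM in PTM and 45.6 ± 0.951 FPKM in VSMC, and the adhesion molecule F11r 199 ± 93.7 FPKM in PTM and 23.3 ± 0.39 FPKM in VSMC.

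Cell cycle genes were near the background, with 9 of 48 higher (18.8%) and 4 lower (8.33%). The 9 higher calls did not hold, since 0, 2 and 1 were higher after quantile, median log-ratio and equal-sum scaling, while 15 were higher without PTM replicate 2 and 5 without PTM replicate 3. The 4 lower genes were called under every scaling. They included the senescence-associated inhibitor Cdkn2a, at 2.53, 3.07 and 2.54 FPKM in PTM, against 66.4, 66.9 and 61.2 FPKM in VSMC, and the G1 cyclin Ccnd1, at 22.4, 16.6 and 18 FPKM in PTM, against 167, 161 and 176 FPKM in VSMC. Mki67, a marker of cycling cells, was not called, at 11, 8.09 and 11.2 FPKM in PTM, against 6.93, 7.75 and 9.15 FPKM in VSMC. Respiratory chain genes numbered 10 higher of 39 (25.6%) and none lower, and 4 or 5 higher under the other scalings. The 4 higher under every scaling were Cox4i2, Ndufa5, Ndufa1 and Cox7a1, of which Cox4i2, a subunit isoform induced at low oxygen, averaged 10.3 ± 1.66 FPKM in PTM and 0.72 ± 0.262 FPKM in VSMC. Of 28 unfolded protein response genes, 2 were lower and none higher, with Hspa5, the main chaperone of the endoplasmic reticulum, at 417 ± 12.1 FPKM in PTM and 439 ± 8.31 FPKM in VSMC. Of 29 immediate early genes, 7 were higher and 2 lower (24.1% and 6.9%, against 15.2% and 7.8% of all genes).

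Genes that vascular cells raise in the synthetic state were called in both directions, 11 of 29 lower and 10 higher. Mgp, matrix Gla protein, an inhibitor of calcification, was at 78.8, 45.7 and 72.5 FPKM in PTM, against 800.5, 737 and 650.4 FPKM in VSMC. Tnfrsf11b, osteoprotegerin, averaged 5.91 ± 2.56 FPKM in PTM and 49.95 ± 1.73 FPKM in VSMC. Alpl, alkaline phosphatase, was higher, at 10.7 ± 2.11 FPKM in PTM and 0.02 ± 0.0346 FPKM in VSMC. Vim, the mesenchymal intermediate filament protein vimentin, was at 2394, 2363 and 2497 FPKM in PTM, against 3218, 3195 and 3106 FPKM in VSMC, and did not reach the fold threshold.

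The same genes were then compared in libraries that entered neither group, as the mean of Sertoli and Leydig cells minus the mean of ISMC and TSMC, 12 libraries in all. In that comparison 2318 of the 11741 genes (19.7%) were called, 1270 (10.8%) higher and 1048 (8.93%) lower. Of the 1783 genes higher in PTM than in VSMC, 1021 (57.3%) were called higher in the other testicular cells and 14 lower. Of the 916 lower genes, 627 (68.4%) were called lower and 3 higher. The 2 differences correlated at 0.86 across the 11741 genes, which are not independent replicates. All testicular cells were isolated in the laboratory and all smooth muscle cells came from the supplier, and the PTM libraries shared Leydig and Sertoli transcripts with these libraries, so that cell type, source and shared cells cannot be told apart in this agreement. Of the higher genes, 945 (53.0%) had both testicular groups nearer to PTM and both other smooth muscle groups nearer to VSMC, and of the lower genes 543 (59.3%).

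In all, 17 genes were called in opposite directions in the 2 comparisons. Spp1 was higher in PTM, at a log2 fold change of 1.87, and lower in the Sertoli and Leydig libraries than in ISMC and TSMC, at -1.27. Cck, the peptide cholecystokinin, did the same, at 2.62 and -2.67. It was at 43.3, 33.7 and 39.3 FPKM in PTM, against 5.03, 5.42 and 5.81 FPKM in VSMC, and averaged 131 FPKM in TSMC. Col6a2, a collagen VI chain, was lower in PTM (-2.40) and higher in the other testicular cells (1.34). Col6a2 averaged 7.57 FPKM in PTM, 58 FPKM in Sertoli and 71.5 FPKM in Leydig libraries, against 42.9 FPKM in VSMC.

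**Figure D4:**
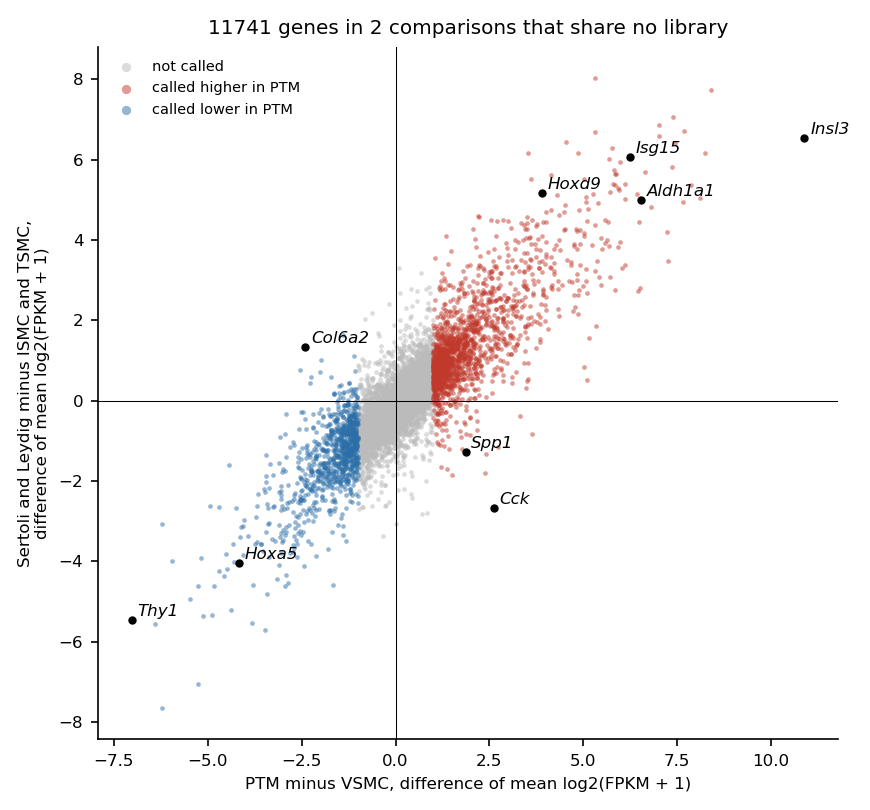
Difference of mean log2(FPKM + 1) between PTM and VSMC (horizontal axis) and between the mean of Sertoli and Leydig cells and the mean of ISMC and TSMC (vertical axis) for 11741 genes. Red points are genes higher in PTM, blue points genes lower in PTM, and grey points were not called; most coloured points lie to the lower left or upper right of the crossed lines, and Spp1, Cck and Col6a2 do not.

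In the authors' deposited table, whose log2 fold changes run as VSMC over PTM, 2327 of the 11741 genes (19.8%) were higher in PTM and 1185 (10.1%) lower, at a q value under 0.05 and the same fold threshold. These included 1782 of the 1783 genes called higher here and 914 of the 916 called lower. The authors' deposited table gives Insl3 a log2 fold change of -12.14 and Fn1 one of 6.43, as VSMC over PTM.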

How the data were processed

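The authors' deposited table gives, for each gene and library, an FPKM value printed to 2 decimals, and, for pairs of groups, log2 fold changes and q values that its headers credit to DEGseq. The submitters' processing notes name RSEM 1.2.12, Bowtie2 2.2.5 and HISAT2 2.0.4 and the build mm10, with no role for each. Whether counting used strand is not given in the sources used here. The table also held 4 summary columns of a further group, which stayed out.

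The values, as log2(FPKM + 1), were fitted with limma 3.58.1 in R 4.3.3, on the 3 PTM and 3 VSMC libraries with a mean per group, a mean-variance trend, two-sided tests, 4 residual degrees of freedom before moderation and Benjamini-Hochberg adjustment over all 11741 genes. Intervals are 95% intervals from that fit. The second comparison used the 12 Sertoli, Leydig, ISMC and TSMC libraries. On simulated data of the first comparison, 50 and 50 of 50 genes planted at a log2 change of 1.5 and -1.5 were called, 49 and 49 of 50 at 2 and -2, and 0 of 11541 unchanged genes. Each simulated gene had the same spread in both groups, and changes were planted only at a mean log2(FPKM + 1) above 4. The real median SD was 0.12 in PTM and 0.058 in VSMC. The simulation thus cannot show how the calls fare with unequal spreads or at low FPKM. Depth was inferred from whole-fragment steps in low FPKM values, within 0.2 of a fragment, of transcripts of 800 to 1500 bases, so it is approximate.

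Gene lists (34 of programmes and 14 of cell type markers) and promoters were matched by symbol and gene identifier, promoters to RefSeq on GRCm38.p6. The text names up to 15 called genes at each extreme with non-overlapping libraries and a mean of at least 10 FPKM in the higher group, and members of the lists. The members, the lists and the rule were chosen with earlier results of these data known. Alternatives varied the pseudocount, scaling, filter, libraries and model. Scaling to an equal sum was chosen after seeing the data.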

Additional observations from a re-analysis of the deposited data

How the results depend on the processing

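The numbers of genes called moved by more than 1.5 times under 3 settings. Quantile normalization gave 1140 genes higher and 1407 lower in PTM. A stricter filter, a mean of at least 5 FPKM, gave 604 lower genes of 8359 tested, and 844 higher genes between Sertoli and Leydig cells and ISMC and TSMC, with fewer genes tested. Scaling to an equal sum of FPKM, chosen after seeing the data, gave 1627 lower genes in that second comparison. Leaving out each library in turn gave 2659 to 2758 called genes, 1748 to 1821 higher and 895 to 937 lower in PTM, and in the second comparison 2246 to 2433 called, 1214 to 1339 higher and 1016 to 1094 lower.

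The replicate numbers did not pair the samples, since the deviations of same-numbered PTM and VSMC libraries correlated at 0.066, -0.067 and -0.099. With the replicate number as a block, 2700 genes were called, 1783 higher and 917 lower. Pseudocounts of 0.1 and 0.01 gave 3390 and 3475 called genes.

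Of a set of 195 genes named above, 180 of them called, none reversed, though the stricter filter tested only 165 of the 195. The set left out some named genes, such as Edn1, Nppb and Calcrl. Within it, 4 or 5 lost their call and 1 or 2 gained it under the 3 other scalings. Without single libraries at most 1 gene of the set lost its call. Among the scalings, 3 genes of the set that were not called changed sign. Outside the set, Edn1 and Nppb were called under none of the 3 other scalings. Neither depth nor the number of FPKM decimals separates levels near 0.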
